A study of Drosophila melanogaster with 9 samples.

Results

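In testes in which *tbrd-2* was knocked down, 76 probe sets stood at least 2-fold above both kinds of control. They were chosen from the deposited array values by a rule: the mean of the 3 knockdown arrays lies at least 1.0 on the log2 scale above the mean of each control group, and the lowest knockdown value lies above the highest of the 6 control values. Of 18952 probe sets, 86 met it, and 10 of these were set aside by gene name, namely *CCHa1*, *prt*, *beat-Ia*, *mia*, *Taf12L*, *Naprt*, *TotB* and the Tweedle genes *Twdlalpha*, *TwdlV* and *TwdlG*. The platform's annotation gives 60 of the 76 members 1 gene symbol each, and these stand for 59 protein-coding genes, with the Notch ligand gene *Delta* represented by 2 probe sets. A further 4 members carry several symbols and 12 are not named here. Because the knockdown and control values chose the members, their differences are given as a description, with no test.

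RNA of whole testes from males 0 to 2 days old, kept at 30°C, was hybridized to expression arrays (Affymetrix Drosophila Genome 2.0), 3 for each genotype. In the knockdown (*bam*≫*tbrd-2RNAi*), a *bam*-Gal4 driver, inserted once on chromosome X and once on chromosome 3, was combined with a hairpin transgene, *tbrd-2RNAi*, at a single dose on chromosome 3. Each control kept one side of this cross: the *bam*-Gal4 males had both driver insertions and no hairpin, and the undriven *tbrd-2RNAi* males had the hairpin, at the same dose, and no driver. According to the labels, both controls also carried a chromosome 3 marked with *Sb*, which the knockdown males lacked, and each array held RNA pooled from 30 animals, a number that is lower in the methods. The *bam* promoter drives Gal4 in the transit-amplifying male germ cells, so the hairpin acts in the germline while the arrays measure the whole organ. In such bulk RNA, a change in the share of a cell type and a change in RNA per cell cannot be told apart.

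tBRD-2 belongs to the BET family, proteins whose bromodomains bind acetylated histones and which are best known as activators of transcription. In the authors' peptide assays, tBRD-2 itself bound histone tails without a preference for acetylated ones, and acetylation seemed to weaken the binding. In the *Drosophila* testis, the genes for sperm formation are transcribed in primary spermatocytes, while many genes of other tissues are kept silent in the same cells. The named members that rise when tBRD-2 is depleted include patterning factors, cell surface proteins, receptors and channels of neurons and muscle, and enzymes, and a role could be given from general knowledge to 34 of the 59 genes. Such roles were not counted over all measured genes, and a loss of silencing was not tested.

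The label of the tissue was checked first. Transcripts of 13 spermatid and sperm genes had a mean log2 value between 12.45 and 12.57 on every array, and 12 genes of the spermatocyte transcription complexes tMAC and tTAF between 8.65 and 9.21. Of 18 neuronal genes, 11 had a control mean under 5, and the list mean lay between 4.85 and 4.99 on all 9 arrays. The log2 value of *tbrd-2* was 8.06, 7.82 and 8.05 in knockdown testes and at least 10.19 in every control. Genes of the accessory gland varied within genotypes, with a list mean of 9.95, 9.77 and 11.56 in the knockdown replicates, 8.20, 11.50 and 10.21 in those of *bam*-Gal4 and 9.99, 9.0 and 9.51 in the undriven ones. Gut enzyme genes stood at 6.63 in knockdown replicate 3, at 6.39 in replicate 3 of the undriven control and at 5.19 to 5.62 elsewhere. The mean log2 value of the 76 members was 7.45, 7.47 and 7.38 in the knockdown replicates, 6.08, 5.96 and 6.0 in those of *bam*-Gal4 and 6.09, 6.17 and 6.03 in the undriven ones. Knockdown replicate 3, highest in gland and gut transcripts, had the lowest mean of the members among the knockdown arrays. With the gland- or gut-rich knockdown replicate 3, *bam*-Gal4 replicate 2 and undriven replicate 3 left out, the rule took in 77 probe sets, 70 of them among the 76.

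Limma, fitted to all 9 arrays, called 0.791% of all probe sets higher than in *bam*-Gal4 controls and 0.633% higher than in undriven testes (Benjamini-Hochberg adjusted p under 0.05 and a difference of at least 1), and 0.454% higher than both. All 76 members were called against each control, which the rule selects for and from which nothing is read. Lowest knockdown values above the highest control value were found for 12.2% of all probe sets. The mean difference of the members ranged from 1.01 to 2.62 relative to *bam*-Gal4 (median 1.32) and from 1.01 to 2.42 relative to undriven testes (median 1.23). A rise of at least 3-fold over both controls was seen in 12 members, and 36 lay under 1.2 in the smaller of their differences. Their control means ran from 3.21 to 11.32, with 44 of 76 under 6, where 51.1% of all probe sets lie too. In the control columns of the heat map of the members, *mud* shows a step between the control genotypes, and most other members do not.

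**Figure D1:**
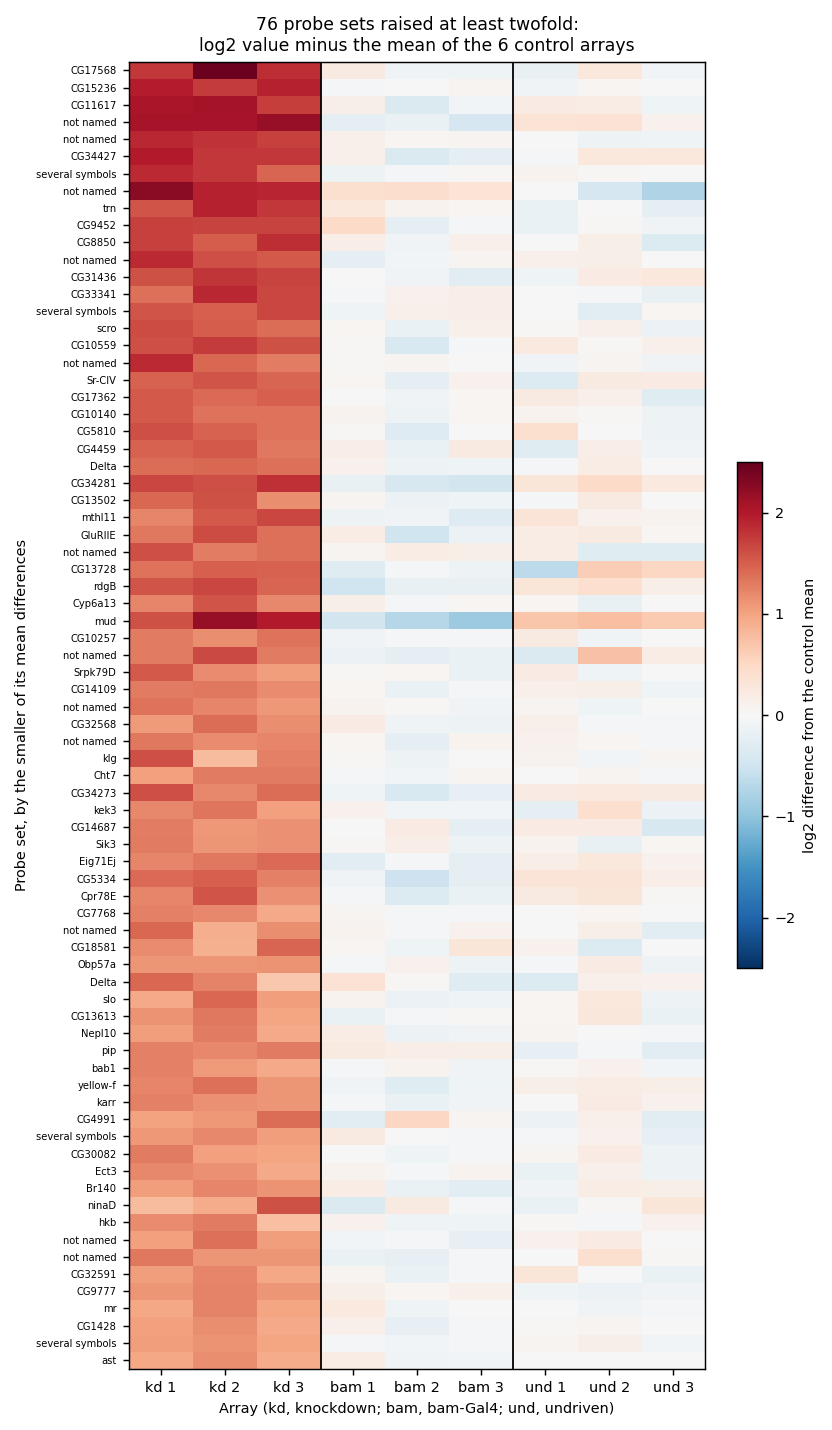
Heat map of the 76 member probe sets (lines, ordered by the smaller of their mean differences) on the 9 arrays (columns). Colour gives the log2 value minus the mean of the 6 control arrays. All 3 knockdown columns are red throughout, as the rule requires, while the control columns stay near 0 except for *mud* and a few others.

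**Figure D2:**
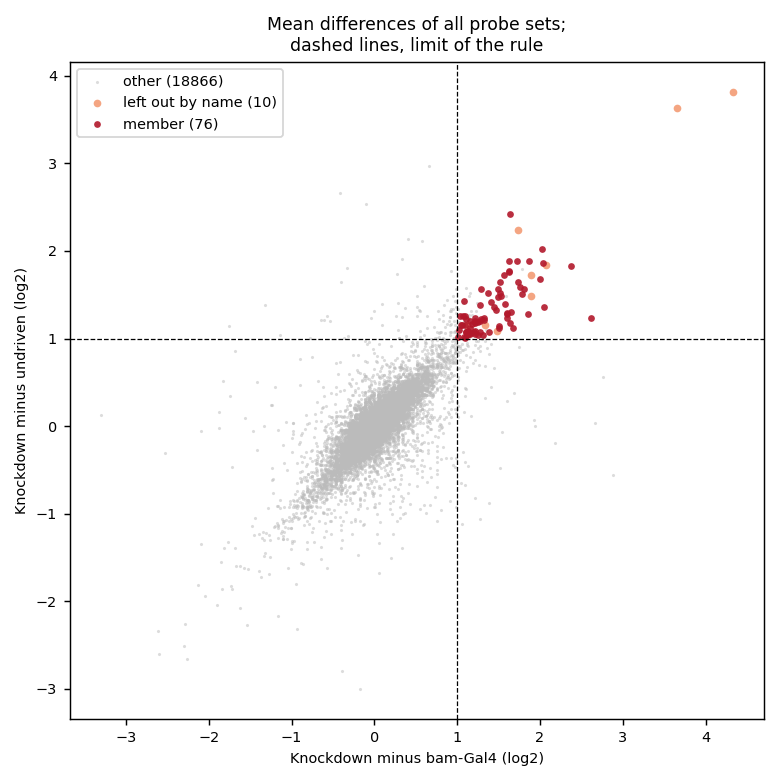
Mean log2 difference of knockdown against *bam*-Gal4 (horizontal axis) and against undriven testes (vertical axis) for all 18952 probe sets. The 76 members (dark red) lie beyond the dashed limits of 1, and the probe sets set aside by name (light red) include those that rose most, *CCHa1* and *prt*.

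Among the named members, 6 encode regulators of transcription or chromatin. *CG17568*, a zinc finger protein gene, had log2 values of 7.64, 8.31 and 7.72 in knockdown, 6.08, 5.75 and 5.76 in *bam*-Gal4 controls and 5.68, 6.13 and 5.79 in undriven testes. This is 4.07-fold above each control, with knockdown replicate 2 well above the others. *CG11617*, a homeobox gene, stood at 7.05, 7.09 and 6.74 in knockdown, at 5.16, 4.66 and 4.95 in *bam*-Gal4 controls and at 5.21, 5.19 and 4.91 in undriven testes, a mean difference of 2.04 and 1.86 (standard error 0.14). *scro*, which encodes an NK2-type homeodomain factor of the brain and pharynx, had 7.72, 7.59 and 7.48 in knockdown, 6.13, 5.91 and 6.20 in *bam*-Gal4 controls and 6.11, 6.20 and 5.93 in undriven testes. The controls of *scro* were indistinguishable, with means that differed by 0.00, and the knockdown was 2.86-fold above each.

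The other genes of this group changed less and were singled out after their values were seen. *bab1*, a BTB-domain factor of limb, gonad and pigment patterning, rose to 5.94, 5.73 and 5.63 from 4.58 to 4.79 in the controls. *hkb*, a zinc finger gene that patterns the ends of the embryo, reached 5.81, 5.92 and 5.38 against 4.51 to 4.73. *Br140*, which encodes a protein with PHD fingers and a bromodomain, had 8.13, 8.30 and 8.21 in knockdown testes and 6.83 to 7.27 on the control arrays, a mean difference of 1.21 and 1.05. A list of 24 measured homeobox genes, which holds *CG11617* but neither *scro* nor *Awh*, had median differences of −0.03 and −0.01 beside −0.02 and −0.03 over all probe sets. Limma called 1 of the 24 higher, *CG11617* itself, and 0 lower against both controls. At an adjusted p under 0.05 alone, *ara* was the 1 further listed gene higher than both controls, by 0.33 and 0.42 (limma, adjusted p = 0.00645 and 0.002), and *mirr* and *Dll* were lower.

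A second group of 4 genes encodes cell surface proteins of cell recognition and signalling. *trn* (tartan), a leucine-rich repeat protein of motor axons and of cell affinity boundaries, had 8.41, 8.75 and 8.61 in knockdown, 7.09, 6.92 and 6.89 in *bam*-Gal4 controls and 6.66, 6.84 and 6.61 in undriven testes. The difference of *trn* was larger against the undriven control (1.89) than against *bam*-Gal4 (1.62, standard error 0.10). *klg* (klingon), an immunoglobulin superfamily gene of photoreceptors and neurons, was dim in the controls at 3.16 to 3.38 on all 6 arrays and reached 4.91, 4.08 and 4.55. Its knockdown replicates had an SD of 0.42, among the widest of the members. For *kek3*, a kekkon-family gene with leucine-rich repeats and an immunoglobulin domain, the knockdown values were 5.89, 6.03 and 5.71 and the controls lay between 4.46 and 5.10.

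*Delta*, the ligand of the Notch receptor, is the 1 gene with both of its measured probe sets among the members. The first probe set gave 7.88, 7.92 and 7.87 in knockdown, 6.59, 6.37 and 6.39 in *bam*-Gal4 controls and 6.44, 6.67 and 6.48 in undriven testes, 2.71-fold and 2.57-fold above the controls with a knockdown SD of 0.03. The second one gave 4.82, 4.63 and 4.06 in knockdown and 3.05 to 3.74 on the control arrays, so that its lowest knockdown value cleared the highest control value by 0.32. Both probe sets thus moved by similar amounts, 1.44 and 1.36 for the first and 1.09 and 1.15 for the second.

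A list of 21 measured genes of axon guidance and cell adhesion was chosen with earlier results known. It holds *trn* but leaves out *klg*, *kek3* and *beat-Ia*, which also met the rule. Its median differences were −0.02 and 0.07, and *trn* was the 1 listed gene called against both controls. The netrin receptor gene *unc-5* had 6.46, 6.25 and 6.24 in knockdown and 5.21 to 5.66 in the controls, a difference of 0.83 relative to *bam*-Gal4 (limma, adjusted p = 5.66e-04) and of 1.01 relative to undriven testes (adjusted p = 2.25e-04), which reached the limit of 1 against the undriven control only. Connectin (*Con*), another leucine-rich repeat gene, was higher by 0.53 and 0.46 (adjusted p = 7.52e-04 and 0.0018 from limma). *fra* was higher by 0.42 and 0.52 (limma, adjusted p = 0.00515 and 0.00174). *Fas1* of the same list went the other way, at −0.40 and −0.61 (limma, adjusted p = 0.0185 and 0.0023). Of 18 neuronal genes, limma called 0 higher and 0 lower against both controls, with *elav* at −0.01 and 0.08 and medians of 0.00 and 0.01. *Snap25*, a gene of synaptic vesicle fusion, went from 3.11 to 3.45 in the controls to 4.04, 4.19 and 3.91 (limma, adjusted p = 6.23e-04 and 1.88e-04), a difference that stayed under 1. *brp*, a gene of the presynaptic active zone, moved the other way, from 6.57 to 7.12 in the controls to 5.73, 5.81 and 5.94, a difference of −1.03 and −0.92 (limma, adjusted p = 5.71e-04 and 0.00104).

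Receptors, channels and uptake proteins made up 5 of the named members. *GluRIIE*, an essential subunit of the glutamate receptors of the neuromuscular junction, had 8.02, 8.33 and 8.07 in knockdown, 6.89, 6.20 and 6.54 in *bam*-Gal4 controls and 6.88, 6.91 and 6.75 in undriven testes. Its *bam*-Gal4 arrays were spread by an SD of 0.34, and every knockdown value lay above them. *Sr-CIV*, of a family of scavenger receptors that haemocytes use for uptake, stood at 6.64, 6.73 and 6.62 against 4.81 to 5.38 on the control arrays, a mean difference of 1.53 and 1.48. Of 10 haemocyte genes, limma called 0 against both controls, and the array mean of the list was 5.60 to 5.80. Single genes of it went both ways, with *Hml* at 0.54 (adjusted p = 0.00837) and 0.29 (adjusted p = 0.106) and *srp* at −0.75 (adjusted p = 4.72e-04) and −0.40 (adjusted p = 0.0125).

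*mthl11*, of the methuselah-like family of G protein-coupled receptors, reached 5.70, 6.03 and 6.16 from 4.37, 4.41 and 4.17 in *bam*-Gal4 controls and 4.82, 4.59 and 4.57 in undriven testes. For *slo*, the calcium-activated potassium channel of neurons and muscle, the knockdown values of 5.81, 6.30 and 5.90 lay above controls of 4.70 to 5.12. *ninaD*, a class B scavenger receptor for carotenoid uptake, was uneven between replicates, with 5.47, 5.61 and 6.27 in knockdown and 4.32 to 4.99 in the controls. The highest value of *ninaD* was that of knockdown replicate 3, the array richest in gut transcripts, and its highest control value was that of undriven replicate 3, the other such array, whose part in the rise was not tested.

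**Figure D3:**
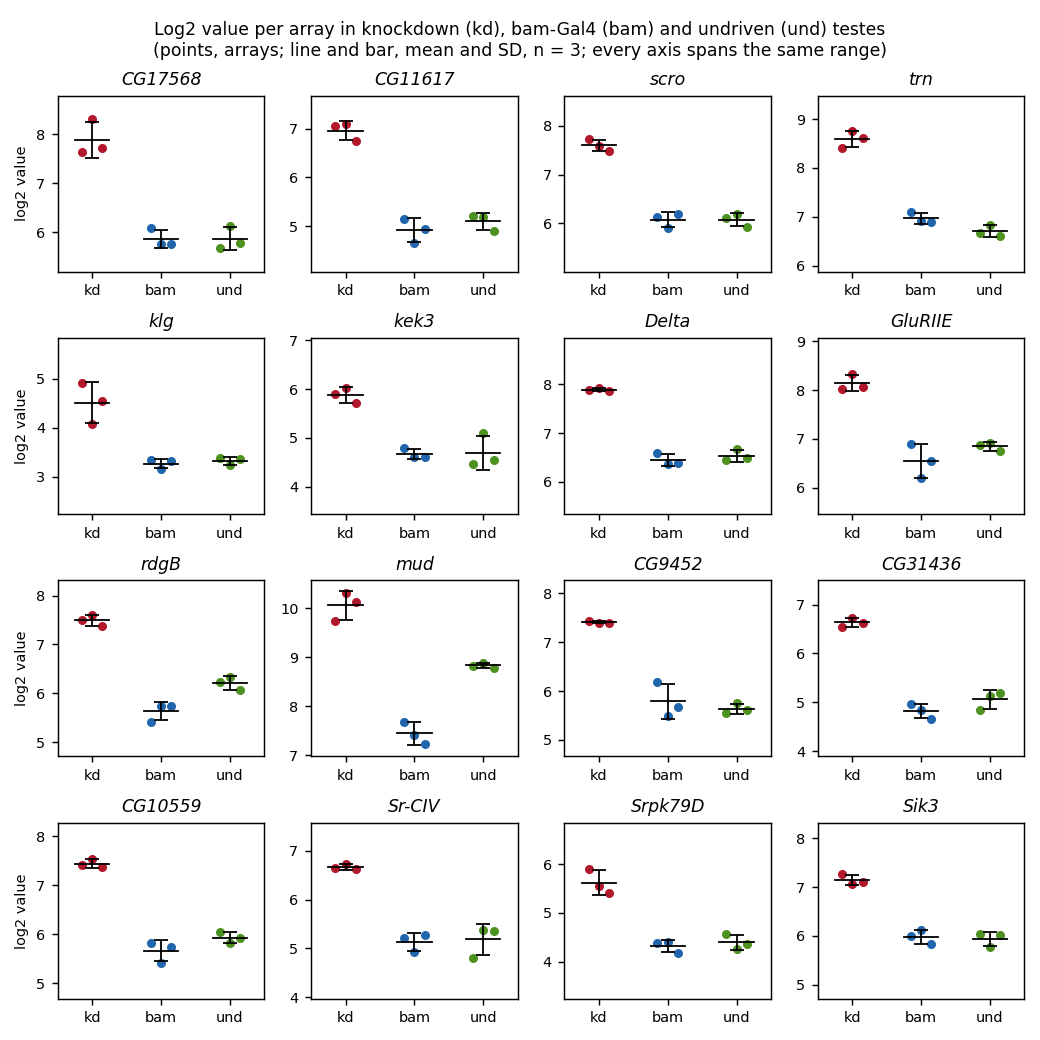
Log2 value (vertical axis) of 16 member genes on each array, with the mean and SD of the 3 arrays per genotype (kd, knockdown; bam, *bam*-Gal4; und, undriven). Every panel spans the same range of log2 values. The knockdown points lie above all control points, and *mud* and *rdgB* differ between the 2 control groups.

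Signalling proteins of the cell interior numbered 3. *rdgB*, a phosphatidylinositol transfer protein needed in photoreceptors, had 7.49, 7.60 and 7.38 in knockdown, 5.42, 5.75 and 5.75 in *bam*-Gal4 controls and 6.23, 6.34 and 6.07 in undriven testes, which is 3.60-fold and 2.42-fold higher. *Sik3*, a salt-inducible kinase of energy metabolism, went from 5.77 to 6.12 in the controls to 7.26, 7.06 and 7.11. *Srpk79D*, a kinase of SR proteins that keeps active zone material from clustering in axons, went from 4.19 to 4.56 in the controls to 5.90, 5.55 and 5.41, with replicate 1 highest.

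Cell division is represented by *mud* and *mr*. *mud*, which orients mitotic spindles and is the fly counterpart of NuMA, had 9.74, 10.32 and 10.13 in knockdown, 7.68, 7.42 and 7.23 in *bam*-Gal4 controls and 8.83, 8.89 and 8.79 in undriven testes. With 6.15-fold over *bam*-Gal4 and 2.34-fold over undriven testes, *mud* had the largest single difference of any member and the most unequal pair. *mr* (morula), which encodes a subunit of the anaphase-promoting complex, moved little beyond the limit, from 9.22 to 9.57 in the controls to 10.29, 10.57 and 10.32.

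Enzymes formed the largest group, with 11 genes. *CG9452*, of the histidine acid phosphatases, had 7.43, 7.40 and 7.40 in knockdown, 6.19, 5.50 and 5.68 in *bam*-Gal4 controls and 5.55, 5.75 and 5.62 in undriven testes. The knockdown arrays agreed within an SD of 0.02, while *bam*-Gal4 replicate 1 stood above its group. *CG31436* and *CG10559* belong to the EcKL genes, which encode predicted kinases of ecdysteroids. *CG31436* rose to 6.54, 6.73 and 6.63 from 4.66 to 5.20, and *CG10559* to 7.41, 7.54 and 7.38 from 5.42 to 6.04. The cytochrome P450 gene *Cyp6a13* reached 8.55, 8.90 and 8.54 against 7.14 to 7.48, and the chitinase gene *Cht7*, dim throughout, 4.23, 4.51 and 4.51 against 3.15 to 3.28. In a list of 18 genes of detoxification that does not hold *Cyp6a13* (cytochromes P450, glutathione and glucuronosyl transferases and transporters), the medians were 0.12 and −0.03 and limma called 0 against both controls.

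The remaining enzyme genes were picked out after their values were seen. These are *pip* (pipe), a sulfotransferase that sets the dorsoventral axis in the ovary, *yellow-f*, a dopachrome conversion enzyme of melanin synthesis, *Ect3*, related to beta-galactosidase, the neprilysin-like peptidase gene *Nepl10*, the cyclophilin gene *CG7768* and the serine protease gene *CG30082*. Their differences lay between 1.05 and 1.39 relative to *bam*-Gal4 and between 1.06 and 1.43 relative to undriven testes. For *yellow-f* the values were 7.11, 7.27 and 6.99 in knockdown, 5.81, 5.59 and 5.79 in *bam*-Gal4 controls and 6.04, 6.08 and 6.04 in undriven testes, with the *bam*-Gal4 arrays below the undriven ones.

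Products of secreting epithelia were few among the members once the Tweedle genes were set aside. *Cpr78E*, a cuticle protein gene, had 6.69, 7.04 and 6.62 in knockdown, 5.43, 5.13 and 5.30 in *bam*-Gal4 controls and 5.70, 5.78 and 5.50 in undriven testes. *Eig71Ej*, of a cluster of ecdysone-induced genes, rose to 6.03, 6.12 and 6.23 from 4.53 to 5.08, and the odorant-binding protein gene *Obp57a* to 5.24, 5.24 and 5.27 from 4.01 to 4.34. The knockdown values of *Obp57a* differed by no more than 0.03 between arrays.

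No role is given here to 25 of the 59 genes. *CG15236* had the largest rise among them by the smaller of its differences, with 5.91, 5.68 and 5.87 in knockdown and 3.85 to 4.01 on all 6 control arrays, 3.65-fold and 3.71-fold (standard error 0.08 on the log2 scale). Its probe set is of the type that shares probes with other transcripts, as are those of *CG8850* and *CG4991*, so these signals may not come from 1 gene alone. *CG34427* stood at 7.81, 7.58 and 7.59 against 5.46 to 6.09 in the controls, *CG8850* at 6.89, 6.68 and 7.02 against 4.83 to 5.34, and *CG33341* at 5.36, 5.85 and 5.64 against 3.78 to 4.14. In none of these did a control array approach a knockdown array by less than 1. *CG34281* was 4.13-fold above *bam*-Gal4 but 2.56-fold above undriven testes, with 7.51, 7.44 and 7.66 in knockdown, 5.65, 5.44 and 5.38 in *bam*-Gal4 controls and 6.14, 6.32 and 6.08 in undriven testes.

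A control mean of at least 9 was reached by 6 members, *CG32568*, *karr*, *CG32591*, *CG9777*, *mr* and *CG1428*. The share of all probe sets at this level was not counted. Of these 6 members, 4 lie on chromosome X, which holds 15.7% of the genes measured. *CG32591* had 12.36, 12.54 and 12.28 in knockdown and 11.15 to 11.62 in the controls, and *karr* 11.71, 11.59 and 11.55 against 10.29 to 10.65. The differences of the 6 bright members ran from 1.02 to 1.27 over *bam*-Gal4 and from 1.02 to 1.26 over undriven testes, with the lower end set by the rule. The spread of *CG13728* was of another kind: undriven replicate 1 stood at 6.05 and replicates 2 and 3 at 7.32 and 7.22, an SD of 0.71, the widest of any member in a control, with knockdown values of 8.07, 8.20 and 8.17.

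The 12 members without a symbol had smaller differences between 1.04 and 1.83, and the 4 with several symbols between 1.01 and 1.65. By the smaller of its differences, the largest of them was an unnamed probe set with 8.16, 8.15 and 8.27 in knockdown, 5.87, 5.93 and 5.67 in *bam*-Gal4 controls and 6.43, 6.45 and 6.20 in undriven testes. At the limit of the rule stood *CG1428* (1.02), a probe set with several symbols (1.01) and *ast* (1.01), a gene of EGF receptor signalling. Just outside it were the LIM-homeobox gene *Awh* (0.997), an unnamed probe set (0.99) and *CG3880* (0.99). Probe sets on either side of the limit thus had nearly the same smaller difference, at unlike log2 levels.

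The controls could be set against each other, a difference that the rule does not use although it uses the same arrays. Of the 76 members, limma called 1, *mud*, at 1.39 lower in *bam*-Gal4 than in undriven testes (standard error 0.15, adjusted p = 0.0014), a share of 1.32% beside 0.206% of all probe sets called lower and 0.38% called in either direction. At an adjusted p under 0.05 with no fold limit, 5 members were lower in *bam*-Gal4 (6.58%, with 1.21% of all probe sets) and 1 was higher (1.32%, with 0.865%). The lower ones were *mud*, *CG34281* by 0.69 (adjusted p = 0.00641), *rdgB* by 0.57 (adjusted p = 0.0309), *CG5334* by 0.54 (adjusted p = 0.0449) and the unnamed probe set just described by 0.54 (adjusted p = 0.0178), all from limma. The higher one was *pip*, by 0.36 (adjusted p = 0.039 from limma). All *bam*-Gal4 values lay below all undriven values in 13 members (17.1%, with 8.46% of all probe sets) and above them in 5 (6.58%, with 6.71%). The knockdown exceeded *bam*-Gal4 by more than it exceeded the undriven control in 50 of 76 members, where the *bam*-Gal4 mean lies below the undriven mean for 54.5% of all probe sets and 65.8% of the members. Of the 6 differing genes or probe sets, *mud*, *rdgB* and *CG5334* lie on chromosome X, which holds 15.7% of the genes measured. X is 1 of the chromosomes that carry the driver in *bam*-Gal4 controls and knockdown males, and a part of the driver was not tested. For *mud* and *rdgB* the difference was confined to the member probe set. Other probe sets had *bam*-Gal4 above undriven by 0.13 for *rdgB* and by 0.19 and 0.02 for *mud* (limma, adjusted p of at least 0.72).

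By chromosome, the 59 genes were distributed with 8 on X, 7 on 2L, 11 on 2R, 16 on 3L, 17 on 3R and 0 on chromosome 4. Chromosome 3 thus held 55.9% of them, and 44.7% of the 11894 genes measured. The knockdown males differ from both controls in the chromosome 3 marked with *Sb* as well as in the knockdown. These differences cannot be told apart, for genes on this chromosome or on any other. Between *bam*-Gal4 and undriven testes, the members had a median difference of −0.14 on X and −0.12 on 3R, beside −0.03 and −0.02 for all measured genes there, and of −0.05 on 2L, −0.03 on 2R and −0.03 on 3L. In length the member genes resembled the rest, with a median of 2013 bases and of 2273 bases for all 11791 measured protein-coding genes in the RefSeq gene table (assembly Release 6 plus ISO1 MT), and 59.3% of them had a single annotated transcript beside 48.4%. A name beyond a CG number was lacking for 30 of 59 (50.8%, beside 43.6%).

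A further 14 probe sets, for 5 of the member genes, failed the rule. Since the rule and limma took the same 86 probe sets, none of these could be called higher against both controls, and their values are given only to show how far probe sets of a gene differ. The second probe set of *rdgB* stood at 6.90, 6.99 and 6.77 in knockdown, 6.67, 6.41 and 6.55 in *bam*-Gal4 controls and 6.37, 6.58 and 6.29 in undriven testes, a difference of 0.34 (adjusted p = 0.0418) and 0.47 (adjusted p = 0.0102). The knockdown values still lay above all controls, by a smaller margin than on the member probe set.

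The 2 further probe sets of *mud* did not share the step between the controls. The first gave 9.82, 10.51 and 10.27 in knockdown, 10.09, 9.63 and 9.61 in *bam*-Gal4 controls and 9.50, 9.67 and 9.60 in undriven testes, with differences of 0.42 and 0.61 (limma, adjusted p = 0.142 and 0.0423). The second gave 9.54, 10.35 and 10.04 in knockdown, 9.69, 9.18 and 9.23 in *bam*-Gal4 controls and 9.33, 9.41 and 9.29 in undriven testes, with differences of 0.61 and 0.63 (limma, adjusted p = 0.0604 and 0.0522). On both, knockdown replicate 1 overlapped the controls, so the 6.15-fold rise of *mud* against *bam*-Gal4 is a property of 1 probe set out of 3.

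*pip* was measured by 10 probe sets and has 11 annotated transcripts. The member gave 8.62, 8.56 and 8.65 in knockdown, 7.57, 7.52 and 7.51 in *bam*-Gal4 controls and 7.15, 7.31 and 7.07 in undriven testes. On the 9 others the knockdown means were dim, from 3.14 to 4.15, and the differences ran from −0.16 to 0.05 relative to *bam*-Gal4 and from −0.22 to 0.01 relative to undriven testes, with adjusted p of at least 0.13 in limma. The second probe set of *Sik3* differed by 0.16 and 0.09 (adjusted p = 0.231 and 0.515 from limma), and the second of *CG7768*, bright at 13.74, 13.78 and 13.73 in knockdown testes, by 0.26 and 0.10 (adjusted p = 0.00951 and 0.25).

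**Figure D4:**
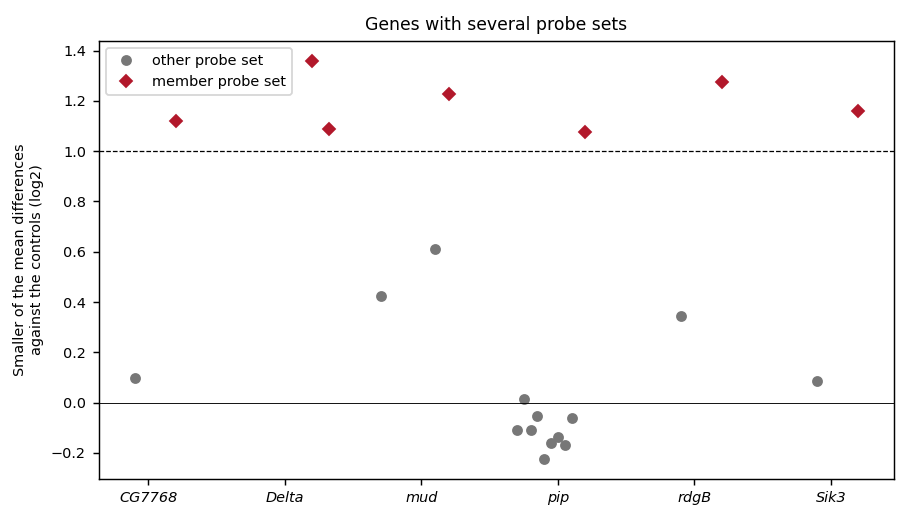
Smaller of the mean log2 differences against the controls (vertical axis) for every probe set of the 6 member genes with several probe sets. Red diamonds are members and grey circles other probe sets of the same gene, and the dashed line is the limit of 1. In *Delta* both probe sets lie above the limit, while 9 probe sets of *pip* lie near 0.

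In the order of measured protein-coding genes along the chromosomes, 115 genes that are no members lie directly beside a member, 67 of them within 1000 bases. Their median difference was 0.00 relative to *bam*-Gal4 and −0.02 relative to undriven testes, beside 0.01 and 0.01 for all 11732 genes that are no members. Limma found 13 of the 115 higher than both controls at an adjusted p under 0.05 with no fold limit (11.3%, with 9.32% of all genes that are no members) and 10 lower (8.7%, with 7.71%). With the fold limit, no neighbour other than the genes set aside by name could be called higher than both controls, and 1 of these, *Twdlalpha*, overlaps *CG32568*.

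Some members lay near each other, with 1 pair directly adjacent in the order of measured genes. *CG10140* and *CG14109* on 3L are neighbours 439 bases apart and were higher by 1.41 and 1.32 than *bam*-Gal4 and by 1.42 and 1.21 than undriven testes. *CG13613* and *CG33341* on 3R lie 2008 bases apart with *CG42811* between them, whose differences were −0.20 and −0.12. *CG31436* and *CG10559*, on 3R and 8842 bases apart, are part of a tandem array of EcKL genes. Directly beside *CG31436*, *CG31370* had 8.65, 8.65 and 8.57 in knockdown and 7.37 to 7.89 in the controls, a difference of 1.01 and 0.92 (limma, adjusted p = 4.56e-04 and 7.43e-04) that reached 1 against *bam*-Gal4 alone, and the next gene, *CG13659*, was higher by 0.95 and 0.81 (adjusted p = 0.0011 and 0.00255). Between both members, *CG10550*, *CG31099* and *CG31087* had differences between −0.21 and 0.09 (adjusted p of at least 0.237 from limma), and *CG31102*, beyond *CG13659*, was lower by 0.39 and 0.64 (adjusted p = 0.0245 and 0.00214). The array thus held higher, lower and little changed genes at distances of up to 8842 bases from *CG31436* on either side.

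The acid phosphatase genes around *CG9452* moved apart in the same manner. *CG9451*, 211 bases from it, had 8.16, 8.04 and 8.13 in knockdown and 8.71 to 8.88 in the controls, lower by 0.69 against each (adjusted p = 1.98e-04 and 1.89e-04 from limma). *CG9449*, the next gene, fell to 7.99, 8.07 and 8.0 from 9.55, 9.06 and 9.26 in *bam*-Gal4 controls and 9.51, 9.17 and 9.12 in undriven testes, by 1.27 and 1.25 (limma, adjusted p = 2.92e-04 and 3.25e-04), and was called lower. Within this tandem group, then, 1 gene rose more than 3-fold while the closest 2 were lower. Of the 3 other acid phosphatase genes measured, listed by family and not by place, *CG6656* was higher by 0.51 and 0.43 (adjusted p = 0.00222 and 0.00538 from limma). Beside *klg*, at a distance of 52981 bases, *CG4704* was the 1 adjacent gene called lower, with 8.65, 8.72 and 8.57 in knockdown and 9.65 to 9.90 in the controls (adjusted p = 4.72e-05 and 3.30e-05 from limma). *CG5347*, 474 bases from *CG5334*, was higher by 0.74 and 0.49 (adjusted p = 5.72e-04 and 0.00505 from limma).

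**Figure D5:**
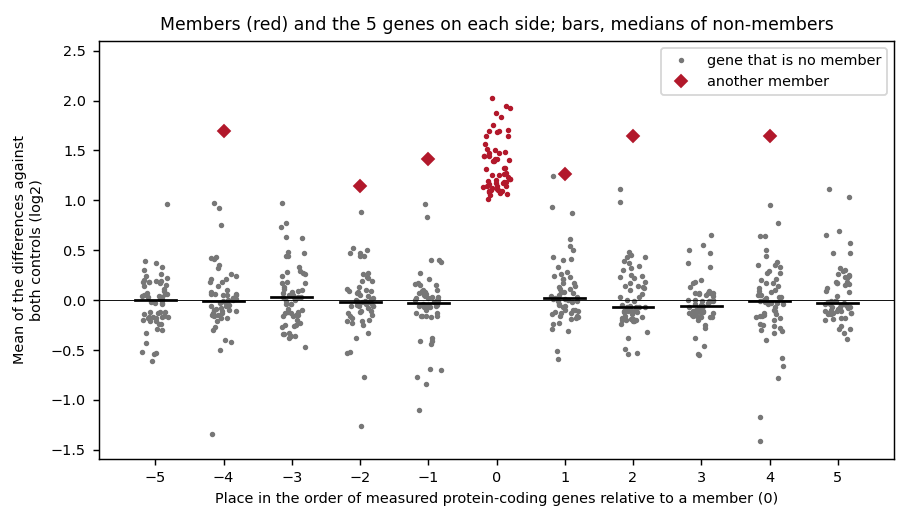
Mean of the log2 differences against both controls (vertical axis) for member genes at place 0 and for the 5 measured protein-coding genes on each side in chromosomal order (horizontal axis). Red points are the members, grey points genes that are no members, bars their medians, and red diamonds other members. The medians lie near 0 at every place.

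Replicates varied little beside these rises. The SD of the 3 arrays had a median over the members of 0.14 in knockdown, 0.13 in *bam*-Gal4 controls and 0.14 in undriven testes, beside 0.10, 0.09 and 0.10 over all probe sets. Knockdown replicate 2 was the highest of its genotype in 35 members, replicate 1 in 28 and replicate 3 in 12. Replicate 3 was lowest in 37. Among the controls, *bam*-Gal4 replicate 1, the array lowest in gland transcripts, was the highest of its group in 42 members, and undriven replicate 2, the lowest undriven array in gland transcripts, in 47. The mean of all probe sets was likewise highest in its group on knockdown replicate 2 (6.494), *bam*-Gal4 replicate 1 (6.510) and undriven replicate 2 (6.523). Such counts were not made over all probe sets. The part of array-wide level or of gland and gut RNA in these within-group shifts was not tested.

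Beside the members, the gene lists of the cell types and stages of the testis stayed without calls. Limma called 0 genes higher and 0 lower against both controls among 8 of spermatogonia and stem cells (medians 0.05 and 0.02), 9 of spermatocytes and meiosis (0.09 and 0.13), 13 of spermatids (−0.03 and −0.03), 9 of cyst cells and hub (−0.05 and −0.10) and 7 of the muscle sheath (−0.07 and −0.12). Accessory gland genes had medians of 0.78 and 1.06 with 0 of 15 called, 11 gut enzyme genes 0.17 and 0.07, 8 fat body genes −0.02 and −0.05, and 6 genes of stress and heat shock −0.11 and 0.16, each with 0 called against both controls. Of 6 antimicrobial peptide genes, with medians of −0.58 and −1.02, 0 were called against both and *Drs* and *DptB* were lower than in undriven testes. In the tMAC and tTAF list of 12, the 2 genes called higher were *mia* and *Taf12L*, which had been set aside. At an adjusted p under 0.05 against both controls with no fold limit (limma), *sa* of this list was also higher, by 0.61 and 0.97. Of the spermatocyte list, *kmg* was higher by 0.76 and 0.84 and *mgr* by 0.43 and 0.40. Lower were *schuy* of the spermatid list (−0.61 and −0.66), *CadN* of the cyst and hub list (−0.42 and −0.43) and *Act87E* of the muscle sheath list (−0.29 and −0.37).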

How the data were processed

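The authors deposited log2 values made from scanned Affymetrix Drosophila Genome 2.0 arrays with the affy package and RMA (background correction, quantile normalization and 1 summary per probe set), whose versions were not given in the sources used here. Per the methods, RMA was run jointly with published arrays for a comparison with those, and it was not stated which run gave the values used here. RMA forces equal distributions on the arrays, so changes are relative to all probe sets, and low values are compressed. From these values, the rule was applied to unrounded means, and limma 3.58.1 in R 4.3.3 (lmFit, eBayes) was fitted to all 9 arrays with a mean per genotype, leaving 6 residual degrees of freedom. P-values were adjusted by Benjamini-Hochberg over all 18952 probe sets of a comparison, and a call needed an adjusted p under 0.05 and a difference of at least 1. The number of arrays limits the precision.

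Symbols came from the platform annotation (13647 probe sets with 1 symbol, 402 with several, 4903 not named), updated through gene IDs from RefSeq. No sequences are shown. Where a list or neighbouring gene has several probe sets, the brightest was used. Members and the 17 gene lists were chosen with earlier results of these data known. Full values are given for 12 genes ranked by the smaller of their differences against the controls and for 13 further genes with a known role, in the same order; roles were assigned after the values were seen. The fit and the rule were tested on simulated data. Separate RNA pools make the replicates, as the labels state. Plots used matplotlib 3.10.9.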

Additional observations from a re-analysis of the deposited data

How the results depend on the processing

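Named member genes kept their direction in all 600 values under other normalizations, left-out arrays or the set without 3 gland- or gut-rich arrays. With arrays left out, this was fixed in advance, as the rule puts every knockdown value above every control value. Of the 600 values, 599 moved by less than 1 SD, the exception being *CG8850* against undriven testes without the 3 gland- or gut-rich arrays (1.545). The rule took in 143 probe sets with a limit of 0.8, 40 with 1.2, and 43 when those averaging under 6 over the 9 arrays were left out first. All 43 were among the 76 and called against each control, which follows from the fewer probe sets. That average includes the knockdown arrays, so some members passed only through their knockdown values. *CG17568*, for example, had a control mean of 5.865 and a mean of 6.54 over the 9 arrays. Nothing about dim members is read from this count. Leaving out 1 array gave 67 to 85 members, 65 to 85 of them called against *bam*-Gal4 and 65 to 85 against undriven, with 67 without knockdown replicate 2 and 85 without knockdown replicate 3, and 50 members met the rule in all 9 such settings. Between the controls 1 member was called in each of these (lowest 1, highest 1), as were 0 other probe sets (0 to 0), 1 neighbour (1 to 1) and 5 listed genes (5 to 5), counts that the choice of the members largely fixes. With no fold limit, 6 members were called between the controls, 1 other probe set, 13 neighbours and 15 listed genes.

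The replicate numbers do not pair the samples: deviations of same-numbered arrays correlated between −0.58 and 0.33, with 3 of 9 pairs over 0.1. With the replicate number as a block, 76 members were called against *bam*-Gal4, 76 against undriven and 1 between the controls.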
